A study of Mus musculus with 8 samples.

Results

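The 9 genes described here encode receptors for noradrenaline, adrenaline and acetylcholine and the enzymes that make cyclic AMP behind them: the beta receptors Adrb1 and Adrb3, the alpha receptors Adra1a, Adra1b, Adra1d and Adra2a, the adenylyl cyclases Adcy5 and Adcy6, and the muscarinic receptor Chrm2. They were taken as every probe whose RefSeq accession belongs to 1 of these genes, which gave 13 probes for 9 genes out of 22909 genes named on the array. A gene was tested if, in some group, its brightest probe read well above background on each of the 2 arrays; 7 of the 9 genes did so, among 15744 genes in all. Adra1a and Adra2a did not.

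The RNA came from mouse heart ventricle, called left ventricle in the design text, and was read on 8 single-colour Agilent arrays on 1 slide. The wild type (WT) animals were compared with knock-in (KI) animals that carry a deletion of lysine 210 (ΔK210) on both copies of Tnnt2, the gene of cardiac troponin T; the labels name no Cre or transgene. Ventricles were taken on the day of birth (0 day) or 1 week later, and each of the 4 groups had 2 arrays. Tissue of 3 animals was combined for a sample, and strain and sex are not given in the sources used here. Whether paired arrays of a group hold RNA of different animals is not stated, so errors and p-values below cover array-to-array spread only, part or all of which may be technical.

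In the heart, noradrenaline from sympathetic nerves acts mainly on the beta-1 receptor (Adrb1), which couples through the stimulatory G protein to adenylyl cyclases; the cyclic AMP they make activates protein kinase A, and its targets raise rate and force of contraction. The alpha-1 receptors couple to phospholipase C and protein kinase C and are linked to growth of cardiac muscle cells. The muscarinic receptor Chrm2 and the alpha-2 receptors couple to inhibitory G proteins, which lower cyclic AMP. Sympathetic innervation of the rodent heart matures after birth, and loss of beta receptor signalling is a known feature of dilated cardiomyopathy, the disease that ΔK210 models.

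For 3 of the 4 arrays at 1 week, the sample named by the scanner file differed from the sample named by the value table, and these arrays are called A to D. By the value table A and D were WT and B and C were KI. By the scanner files A and B were WT and C and D were KI. Both records agreed for birth. Genotype at 1 week is given by the value table first and by the scanner files beside it, while every comparison of 1 week with birth over both genotypes has the same estimate in the 2 records. Array brightness, as the 75th percentile of processed signal, was 621 to 652 at birth and 715, 732, 658 and 465 on A to D, with 58.9% to 63.1% of probes well above background on the 8 arrays. Age went with slide row (birth in row 1, 1 week in row 2), and genotype at birth went with slide column, so neither pair can be told apart. Levels are log2 processed signal minus the array's 75th percentile, so that 0 is the percentile; levels of different probes are not compared. In whole tissue, fewer cells of a type and less RNA per cell cannot be told apart.

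Promoters are shown for Adrb1 and Adcy5, the receptor and the cyclase of the main cardiac pathway, whose levels had the highest correlation of any pair of tested members (Pearson r = 0.707 over the 8 arrays, which share slide, scan and scaling; given as a description). The stretch runs from 250 bases before to 50 bases after the start (RefSeq, GRCm38.p6; a build other than that of the array files, matched by symbol). Adrb1 lies at chr19:56721867-56722166 on the + strand and Adcy5 at chr16:35154614-35154913 on the + strand. Capitals mark the core letters TGACG of the cyclic AMP response element and the GC box GGGCGG, each on either strand.
Adrb1: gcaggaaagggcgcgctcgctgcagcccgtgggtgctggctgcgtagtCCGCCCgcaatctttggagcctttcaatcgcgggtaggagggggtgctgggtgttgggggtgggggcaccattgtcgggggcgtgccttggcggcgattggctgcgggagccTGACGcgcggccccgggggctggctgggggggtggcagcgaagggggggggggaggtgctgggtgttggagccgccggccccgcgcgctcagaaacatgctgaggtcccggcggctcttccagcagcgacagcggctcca
Adcy5: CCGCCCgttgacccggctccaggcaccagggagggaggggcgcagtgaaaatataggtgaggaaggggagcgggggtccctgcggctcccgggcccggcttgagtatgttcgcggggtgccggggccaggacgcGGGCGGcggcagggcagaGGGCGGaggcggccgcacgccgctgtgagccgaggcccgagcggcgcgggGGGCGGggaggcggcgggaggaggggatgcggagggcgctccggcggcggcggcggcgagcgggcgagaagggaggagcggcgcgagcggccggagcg
The Adrb1 promoter held 1 TGACG, starting at position -90, and 1 GC box, and had 28 CpG in its 300 bases. The Adcy5 promoter held 4 GC boxes, no TGACG and 44 CpG, more than 97.75% of all promoters of that length. TGACG on either strand was found in 20.81% of 32851 such promoters and GGGCGG in 35.66%. The full element TGACGTCA, which contains TGACG, was found in 1.79% and in none of the members' promoters available. These were the promoters of Adrb1, Adcy5, Adra2a, Chrm2 and Adra1b. No promoter was available for Adrb3, Adra1a, Adra1d and Adcy6. Of the other members in the RefSeq promoter table, Adra2a held 1 TGACG (position -69), 1 GC box and 1 TATAAA (13.62% of promoters), Chrm2 held 1 GC box, and Adra1b held no GC box at its upstream start and 2 at its downstream start. These matches describe letters in a window and no measured binding.

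**Figure D1:**
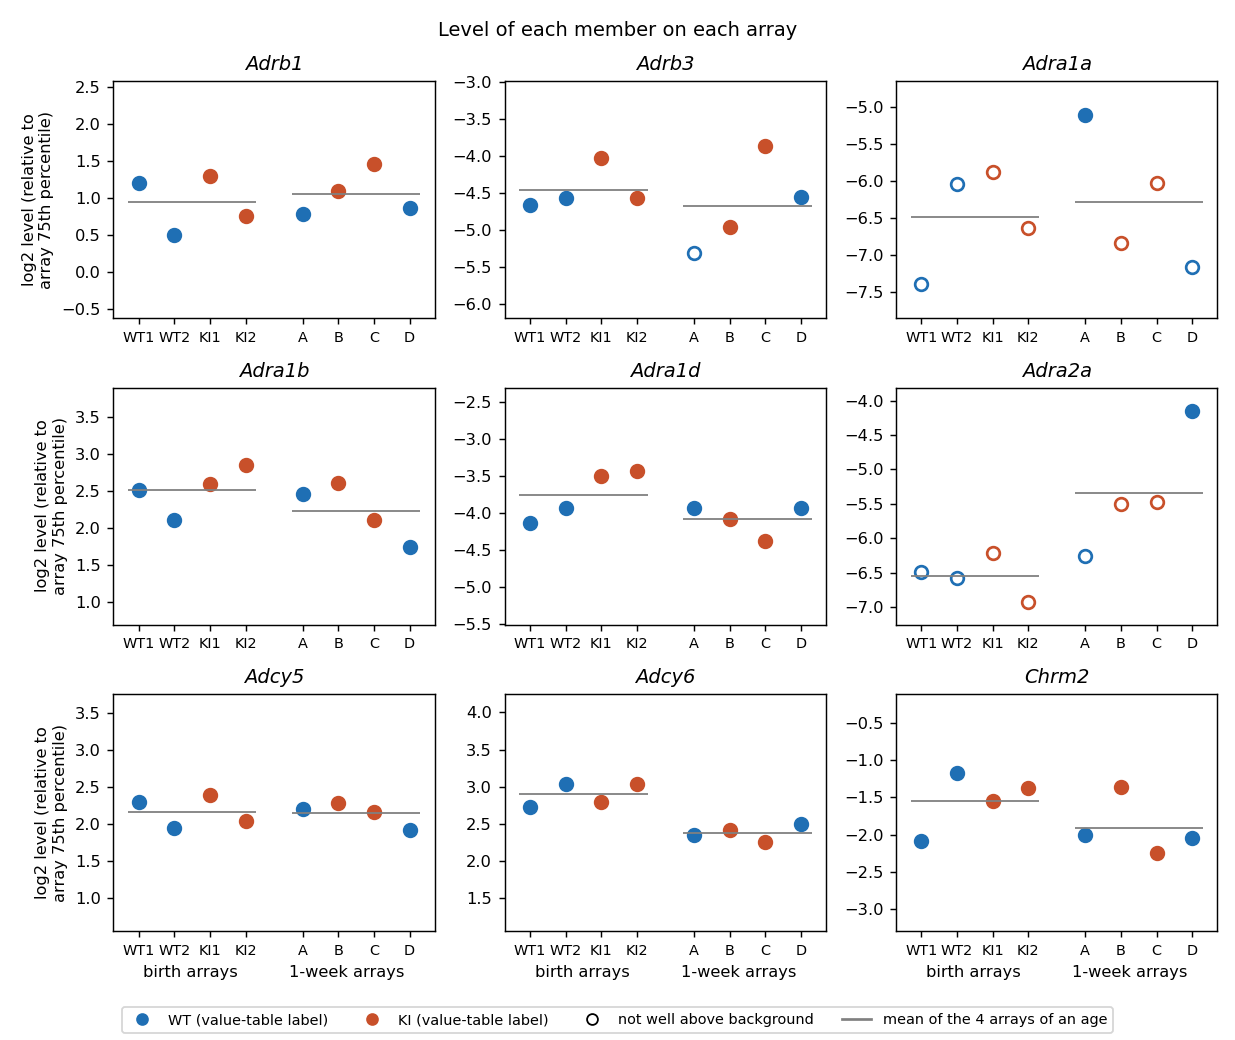
Log2 level (y axis, relative to the array's 75th percentile) of the brightest probe of each of the 9 genes on the 4 birth arrays and on arrays A to D at 1 week. Points are coloured by the value-table genotype, open circles are not well above background and grey lines are the means of 4 arrays of an age. The panels span the same number of log2 units, except that of Adra2a, which spans slightly more. Adcy6 is the gene whose birth arrays (2.73 to 3.04) all lie above its 1-week arrays (2.26 to 2.49).

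Adrb1, the main beta receptor of heart muscle (probe A_52_P322181, accession NM_007419, chromosome 19), was well above background on all 8 arrays. The WT birth arrays read 1.20 and 0.50, the KI birth arrays 1.29 and 0.75, and arrays A to D 0.79, 1.097, 1.45 and 0.86. The birth values spanned as much within a genotype as between genotypes, and the ages overlapped. The mean was 0.94 ± 0.37 (SD, n = 4 arrays) at birth and 1.05 ± 0.30 (SD, n = 4) at 1 week. KI minus WT was +0.17 ± 0.28 at birth (limma SE; 95% interval -0.49 to 0.83) and +0.45 ± 0.28 at 1 week (-0.21 to 1.11), with adjusted p = 1.00 and 0.694 in limma. At 1 week the KI arrays B and C lay above the WT arrays A and D; by the scanner files the difference was +0.21 ± 0.32 and the genotypes overlapped.

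Adrb3, a beta receptor best known from fat tissue (chromosome 8), was close to background. Its brightest probe (A_55_P1992849, NM_013462) was above background on every array but A, with processed signals of 18.0 to 45.1. The WT birth arrays read -4.66 and -4.57, the KI birth arrays -4.03 and -4.56, and arrays A to D -5.31, -4.96, -3.87 and -4.55. KI birth 1 and array C were the high arrays and A the low one, and the ages overlapped. KI minus WT was +0.32 ± 0.40 at birth (95% interval -0.63 to 1.27) and +0.52 ± 0.40 at 1 week (-0.43 to 1.47); neither passed. By the scanner files, with C and D as KI, the 1-week difference was +0.92 ± 0.28 (unadjusted p = 0.0138, adjusted p = 0.416 in limma). A probe of the same accession (A_55_P2105685), above background on 6 arrays, differed in sign for age. There 1 week minus birth was +0.50 ± 0.31, against -0.22 ± 0.28 on the brightest probe, and neither passed. That probe also differed in sign for KI minus WT at 1 week by the scanner files, at -0.28 ± 0.42. By the value table it did not (+0.08 ± 0.43).

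The alpha-1B receptor gene Adra1b, coupled to phospholipase C (A_52_P639048, NM_007416, chromosome 11), was well above background on all arrays. Levels were 2.52 and 2.11 for the WT birth arrays, 2.60 and 2.86 for the KI birth arrays, and 2.46, 2.62, 2.11 and 1.74 for A to D. Both KI arrays lay above both WT arrays at birth, and D was the lowest of the 8. KI minus WT at birth was +0.41 ± 0.29 (95% interval -0.28 to 1.102; adjusted p = 1.00 in limma). At 1 week the sign depended on the record: +0.26 ± 0.29 by the value table (-0.43 to 0.95; adjusted p = 0.805) and -0.61 ± 0.20 by the scanner files (-1.09 to -0.13; adjusted p = 0.428, limma). One week minus birth in KI was -0.37 ± 0.29 by the value table and fell by 0.80 ± 0.20 by the scanner files, where it passed (adjusted p = 0.0414 in limma). Over both genotypes the difference was -0.29 ± 0.21 (adjusted p = 0.321), and the ages overlapped.

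For Adra1d, the alpha-1D receptor gene (A_55_P2019954, NM_013460, chromosome 2), levels were -4.13 and -3.93 for the WT birth arrays, -3.49 and -3.43 for the KI birth arrays, and -3.93, -4.07, -4.38 and -3.93 for A to D. The probe was dim, with processed signals of 30.5 to 60.4, but above background on all 8 arrays. Both KI arrays at birth lay above the other 6 arrays, and by the value table both KI arrays at 1 week lay below both WT arrays. KI minus WT was +0.57 ± 0.15 at birth (95% interval 0.23 to 0.92; unadjusted p = 0.00599, adjusted p = 0.613 in limma) and -0.30 ± 0.15 at 1 week (-0.64 to 0.05; adjusted p = 0.679). The difference between these, age by genotype, was -0.87 ± 0.21 (unadjusted p = 0.00419, adjusted p = 0.757 in limma), and -0.73 ± 0.24 by the scanner files. In KI the level fell by 0.76 ± 0.15 from birth to 1 week (1.70-fold; adjusted p = 0.0211 in limma; 0.0419 by the scanner files, with -0.69 ± 0.17), whereas 1 week minus birth in WT was +0.10 ± 0.15. The call in KI was lost without KI birth 1 (-0.79, adjusted p = 0.0853), KI birth 2 (-0.73, 0.118) or array C (-0.61, 0.121). It was also lost with the trend and robust fit (adjusted p = 0.0787) and with the normexp background correction, under which the difference was -0.32 (adjusted p = 0.159). Over both genotypes 1 week minus birth was -0.33 ± 0.10, just short of the threshold (adjusted p = 0.0524). The other Adra1d probe (A_55_P1961809) was above background on 1 array, KI birth 2.

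Adra1a, the alpha-1A receptor gene (chromosome 14), was not well above background on 7 of the 8 arrays. Its probe A_51_P447229 (NM_013461) passed on A alone, with a level of -5.10 there and -7.40 to -5.88 on the others, and A_55_P2934292 (NM_001271761) passed on no array. Adra2a, the alpha-2A receptor gene, whose product on nerve endings limits noradrenaline release (A_55_P2021505, NM_007417, chromosome 19), was above background on D alone. It read -6.49 and -6.58 on the WT birth arrays, -6.22 and -6.92 on the KI birth arrays, and -6.25, -5.50, -5.47 and -4.14 on A to D. The highest birth array, KI birth 1, lay above A by a small margin, and B, C and D lay above all birth arrays. As 7 of the 8 readings were not above background, no difference is given for Adra2a.

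Some markers of fat cells were also high on the arrays where Adra2a read highest, and others were not. Of 9 listed adipocyte genes 8 were above background on at least 1 array. Ucp1, Adipoq, Plin1 and Cfd, named after their values were seen, were above background on B, C and D only; Elovl3 passed on none. Ucp1, the uncoupling protein of brown fat, stood at -6.77, 0.04, 0.74 and 1.96 on A to D and at -7.77 to -7.34 at birth. Lep, the leptin gene, was -1.63, -1.65, -1.77 and -1.52 on A to D, and Fabp4, a fatty acid binding protein also made by endothelium, was 6.81, 6.73, 7.27 and 7.32. The summed signal of the list is given in units of the array's 75th percentile. It was 124 to 141 at birth and 130, 127, 177 and 187 on A to D. Fabp4 gave most of this sum on every array. Without Fabp4 the sums were 11.75 to 15.23 at birth and 18.25 to 26.54 at 1 week, with no overlap. Cidea was the brightest gene of the rest and was above background on all 8 arrays. It read no higher than 3.89 at birth and 4.16 to 4.38 on A to D. On A it stood at 4.16, while Ucp1, Adipoq, Plin1 and Cfd were not above background there. The sum without both Fabp4 and Cidea was not taken, so the lack of overlap does not show a rise across the list. Atrial markers differed between the same arrays: their sum was 306 to 409 at birth, 44.7 on A and 286 to 346 on B to D. Their part in the levels of Adra2a and Adrb3 was not tested.

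Chrm2, the muscarinic receptor of heart muscle through which the vagus nerve slows the heart (A_55_P2055284, NM_203491, chromosome 6), was above background on all arrays. The WT birth arrays read -2.09 and -1.17, the KI birth arrays -1.55 and -1.37, and arrays A to D -2.01, -1.36, -2.24 and -2.05. Array B and WT birth 2 were high for their age, and the ages overlapped. KI minus WT was +0.17 ± 0.36 at birth (95% interval -0.69 to 1.04) and +0.23 ± 0.36 at 1 week (-0.64 to 1.09) by the value table, against -0.46 ± 0.33 at 1 week by the scanner files; none passed in limma (adjusted p from 0.667 to 1.00). Over both genotypes 1 week minus birth was -0.37 ± 0.26 (adjusted p = 0.311).

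Adcy5 and Adcy6 encode the related adenylyl cyclases that make most cyclic AMP in heart muscle, and 1 of the 2 changed over the first week; the difference between them was not tested. Adcy5 (A_55_P2047305, NM_001012765, chromosome 16) read 2.30 and 1.94 on the WT birth arrays, 2.39 and 2.03 on the KI birth arrays, and 2.20, 2.28, 2.16 and 1.91 on A to D. Its ages overlapped throughout, with 1 week minus birth at -0.03 ± 0.14 (95% interval -0.35 to 0.30; adjusted p = 0.907 in limma). KI minus WT was +0.09 ± 0.19 at birth and +0.17 ± 0.19 at 1 week, or -0.20 ± 0.19 by the scanner files.

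Adcy6 (A_51_P243134, NM_007405, chromosome 15) read 2.73 and 3.04 on the WT birth arrays, 2.79 and 3.04 on the KI birth arrays, and 2.35, 2.41, 2.26 and 2.49 on A to D. Every birth array lay above every 1-week array. The mean was 2.90 ± 0.16 at birth and 2.37 ± 0.10 at 1 week (SD, n = 4 each). It fell by 0.53 ± 0.11 (1.44-fold; 95% interval -0.80 to -0.25; adjusted p = 0.0155 in limma; exact permutation p = 0.0286, the smallest that 4 arrays against 4 allow). The change was -0.47 ± 0.16 in WT and -0.58 ± 0.16 in KI, neither of which passed on its own (adjusted p = 0.0866 and 0.0688). Without WT birth 2 (-0.45, adjusted p = 0.0507), KI birth 2 (-0.46, 0.0560) or array C (-0.49, 0.0580) the call was lost by a small margin, while the direction held with each array left out. The other Adcy6 probe of the same accession (A_55_P2744107), dim but above background on all arrays, gave -0.20 ± 0.14 (adjusted p = 0.309 over 23036 probes), and its ages overlapped. KI minus WT was +0.03 ± 0.16 at birth (95% interval -0.35 to 0.42) and -0.09 ± 0.16 at 1 week (-0.47 to 0.30).

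Over both genotypes 1 of the 7 tested members passed between birth and 1 week, Adcy6, against 29.2% of the 15744 genes tested (13.9% lower and 15.3% higher); Adcy6 and Adra1d had an unadjusted p under 0.05 (42.9% of genes). The median difference of the 7 was -0.29, beside -0.01 over all genes tested; 6 of the 7 estimates were negative. Adcy6 was also the single member whose ages did not overlap, as was so, in the same direction, for 18.6% of genes. In WT 0 of 7 passed in limma (19.3% of genes did) and 1, Adcy6, had an unadjusted p under 0.05 (36.5% of genes). In KI Adra1d alone passed, against 10.6% of genes. By the scanner files 0 of 7 passed in WT (12.7% of genes did), and Adra1d and Adra1b passed in KI (15.5%). The comparisons in WT, in KI and over both share their arrays.

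The question of a genotype difference gave no member past the threshold at either age. At birth 0 of 7 passed in limma, where 6 of 15744 genes (0.0381%) did; 1 member, Adra1d, had an unadjusted p under 0.05 (4.62% of genes). All 7 estimates were positive at birth, with a median of +0.17 (-0.0037 over all genes). The KI arrays of 3 members, Adrb3, Adra1b and Adra1d, lay wholly above the WT arrays, as was so for 16% of genes. For Adrb3 the margin was small, with KI birth 2 at -4.565 and WT birth 2 at -4.570, and on its other probe the genotypes overlapped. At 1 week 0 of 7 passed by the value table, where 7 genes (0.0445%) did, and 0 members had an unadjusted p under 0.05 (7.15% of genes). The genotypes parted there for Adrb1 (KI higher) and Adra1d (KI lower), and for 38.3% of genes in either direction. By the scanner files they parted for other members: Adrb3 (KI higher) and Adra1b, Adcy5 and Chrm2 (KI lower), beside 40.8% of genes. By the scanner files 0 of 7 and 0 of 15757 genes passed at 1 week. Adrb3, whose other probe had the opposite sign, and Adra1b had an unadjusted p under 0.05 (10.4% of genes). In the test of age by genotype 0 of 7 passed, against 1 gene (0.00635%) by the value table and 0 by the scanner files. Adra1d by the value table, and Adra1b and Adra1d by the scanner files, had an unadjusted p under 0.05 (4.99% and 6.56% of genes). The 95% intervals at 1 week ran from the narrowest, -0.64 to 0.05 for Adra1d, to the widest, -0.43 to 1.47 for Adrb3, so a missed threshold does not show that the genotypes were alike.

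**Figure D2:**
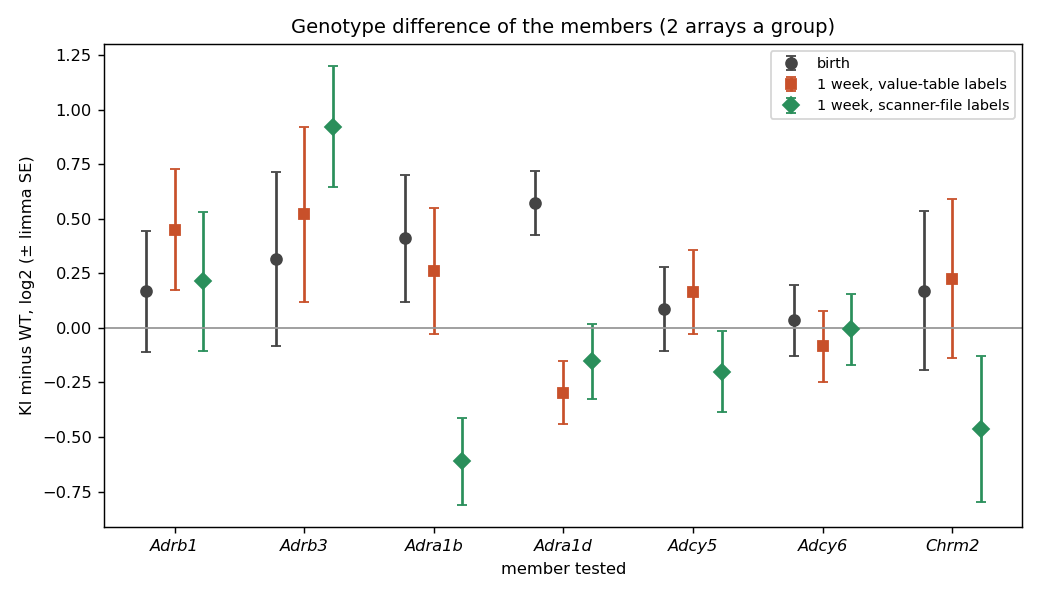
KI minus WT (y axis, log2, ± limma SE, 2 arrays a group) for the 7 tested members at birth and at 1 week under the 2 records of the 1-week samples. The points for Adra1b, Adcy5 and Chrm2 lie above 0 by the value table and below 0 by the scanner files; no point passed after adjustment.

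Around the members, 122 genes of the same pathways were listed by role, of which 117 were tested. Over both genotypes 15.3% of all genes tested were higher and 13.9% lower at 1 week than at birth in limma, shares that also stand beside each list below. Of the 117, whose median difference was +0.19 (-0.01 over all genes), 31 were higher and 19 lower. Of these 50 genes 28 kept their call under every alternative run, 20 lost it without at least 1 array, and none changed sign. Leaving out KI birth 1 reduced the 50 calls to 33. At either age 0 of the 117 differed between the genotypes in limma by the value table or by the scanner files. At an unadjusted p under 0.05 there were 9 at birth and 10 at 1 week by the value table, beside 4.62% and 7.15% of all genes. By the scanner files there were 5 and 18, beside 10.4% of all genes at 1 week. The share at birth by the scanner files is not given here. Without array A or without array D, 1 was called at 1 week. The lists were not chosen independently of earlier results on these arrays.

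The enzymes and binding proteins that act on cyclic nucleotides after the cyclases included more that rose than fell: 12 of 20 were higher and 3 lower, with a median of +0.52. Leaving out 1 array gave 8 to 13 higher, the fewest without KI birth 1 or array B. Pde8b, a phosphodiesterase specific for cyclic AMP, rose by 2.59 ± 0.15 (6.02-fold; adjusted p = 0.000143). It was -5.27, -4.69, -4.31 and -4.20 on the birth arrays, 1 of which was not above background, and -2.10, -2.17, -2.10 and -1.75 on A to D, so the ages stood far apart. With the normexp background correction the rise was 1.31. Pde5a, which breaks down cyclic GMP, rose by 0.80 ± 0.10 (adjusted p = 0.00149), and Rapgef3, an exchange factor switched on by cyclic AMP, by 0.75 ± 0.10 (0.00229). Popdc3, a membrane protein that binds cyclic AMP, fell by 1.19 ± 0.14 (adjusted p = 0.00135), and the calmodulin-stimulated Pde1c fell by 0.60 ± 0.08 (0.00291). Popdc2 fell by 0.43 ± 0.10 (adjusted p = 0.0183), a call lost without WT birth 1, KI birth 1, KI birth 2, B or C, with an adjusted p of up to 0.0679.

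Among the other membrane adenylyl cyclases 2 of 5 tested rose and none fell, with a median of +0.59. Adcy7 rose by 1.75 ± 0.21 (3.37-fold; adjusted p = 0.00144 in limma), from -1.71 to -0.92 on the birth arrays to 0.30 to 0.48 on the 1-week arrays. Adcy4 rose by 0.59 ± 0.16 (adjusted p = 0.0328), a call lost without any single array other than A (adjusted p of up to 0.105). Adcy2 and Adcy8 did not meet the signal filter. All 5 estimates were positive, though only 2 passed, and that of Adcy6 was negative. The difference between Adcy6 and these cyclases was not tested.

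Of the regulators of receptors and G proteins (receptor kinases, arrestins and RGS proteins, which speed the shut-off of G proteins) 6 of 13 rose and 1 fell, with a median of +0.37. Rgs4 rose by 2.22 ± 0.18 (4.66-fold; adjusted p = 0.000404), from -4.81 to -3.96 at birth to -2.33 to -1.91 at 1 week, and by 1.105 with the normexp background correction. Rgs5, which is also in the list of pericyte markers, rose by 1.45 ± 0.10 (adjusted p = 0.000236), and Rgs10 by 0.78 ± 0.09 (0.00123). Grk3, a kinase of the beta receptor kinase family, fell by 0.86 ± 0.11 (adjusted p = 0.00189), with all birth arrays at 1.71 to 1.83 and all 1-week arrays at 0.68 to 1.06.

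The G protein subunits were mixed, with 2 of 16 higher, 4 lower and a median of -0.06; none was higher without WT birth 1, WT birth 2, KI birth 1 or C. Gng2, a gamma subunit, fell by 2.04 ± 0.17 (4.13-fold; adjusted p = 0.000398): its birth arrays stood at 2.81 to 3.01 and its 1-week arrays at 0.42 to 1.14. Gnai1, an inhibitory alpha subunit, fell by 0.68 ± 0.11 (adjusted p = 0.00433). Gng7 was above background on the 4 birth arrays and on none at 1 week, which made it at least 1.74-fold lower. It entered the test through its birth arrays alone, the call was lost without any birth array, B or C, and with normexp its difference was -0.19. Gng11 rose by 0.55 ± 0.13 (adjusted p = 0.0183) and Gnb4 by 0.34 ± 0.10 (0.0409). The call of Gng11 was lost without WT birth 1, WT birth 2, KI birth 1 or C (adjusted p of up to 0.0641) and that of Gnb4 without any single array (up to 0.130). Gnas, the stimulatory alpha subunit that couples Adrb1 to the cyclases, stood at -0.05 ± 0.09 (named for its role and not by the naming rule).

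Protein kinase A subunits, anchors and inhibitors had 1 of 15 higher and 2 lower, with a median of +0.17. The balance was not stable: it was 4 higher and 1 lower by the scanner files, 3 and 2 with quantile normalization, and 3 and 1 without array B. Akap5, which anchors the kinase near receptors and channels, rose by 1.46 ± 0.12 (2.75-fold; adjusted p = 0.000421), and Akap1, its mitochondrial anchor, fell by 0.48 ± 0.10 (0.0123; 0.101 with the mean of its probes). Prkar1b, a regulatory subunit, fell by 0.40 ± 0.11 (adjusted p = 0.0366), a call lost by the scanner files (0.0949) and without any single array other than D (up to 0.116). Among phosphorylated effectors and the muscarinic potassium channel 2 of 16 rose and 3 fell. Kcne1, the small subunit of the slow delayed rectifier channel, rose by 0.79 ± 0.11 (adjusted p = 0.00241) and the cyclic AMP responsive factor Crem by 0.52 ± 0.09 (0.00757). Ppp1r1a, the phosphatase inhibitor that protein kinase A switches on, fell by 1.22 ± 0.13 (2.33-fold; adjusted p = 0.000832), and by 0.75 with normexp. Cacna1c, the L-type calcium channel, fell by 0.48 ± 0.10 (adjusted p = 0.0127; 0.0520 without B). Kcnq1, the pore of the slow delayed rectifier, fell by 0.59 ± 0.15 (0.0284), a call lost without either WT birth array, KI birth 1, C or D (up to 0.216 over all alternatives).

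In the arm downstream of the alpha-1 receptors 4 of 12 rose and 2 fell, with a median of +0.20; none rose without KI birth 1, without KI birth 2 or without C, and 1 without WT birth 2 or B, while 2 fell in each case. Plcb2, a phospholipase C, fell by 2.24 ± 0.26 (4.71-fold; adjusted p = 0.00136), from -2.27 to -2.05 at birth to -4.97 to -3.85 at 1 week; with normexp it fell by 1.15. The kinase Prkcd fell by 0.55 ± 0.10 (0.00845). Itpr1, the inositol trisphosphate receptor, rose by 0.38 ± 0.09 (adjusted p = 0.0190), Prkch by 0.54 ± 0.14 (0.0294) and Plcb1 by 0.56 ± 0.16 (0.0405). These 3 calls were each lost without KI birth 1, KI birth 2 or C and without 1 to 3 other arrays (adjusted p no higher than 0.122). With the mean of their probes the differences of Itpr1 and Plcb1 were 0.82 and 1.01. Among receptors outside the 9 none of 4 tested passed in limma and 1 had an unadjusted p under 0.05; it was Adra2b, at -0.40 ± 0.13 (adjusted p = 0.0576). In the same list 1 gene was called lower with the replicate block, normexp, quantile or median scaling or genes above background on all 8 arrays, 2 lower without D, and 1 higher without B.

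**Figure D3:**
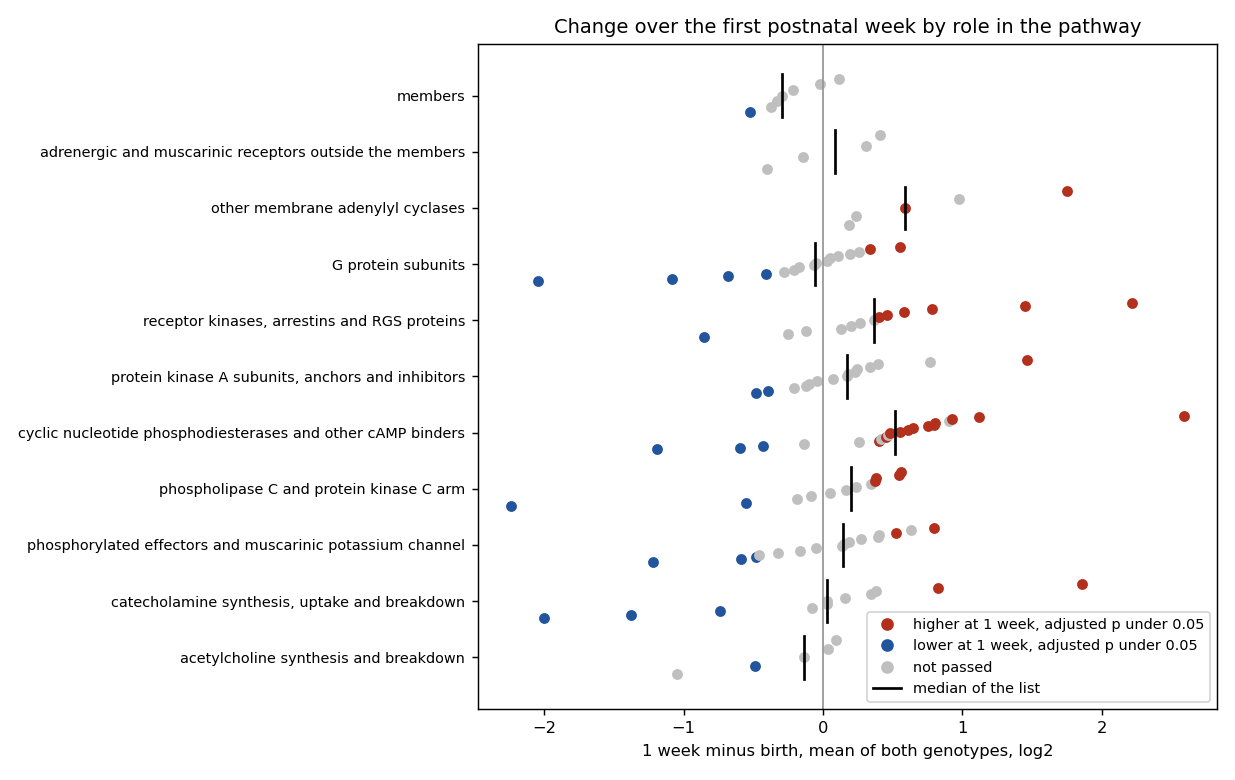
One week minus birth over both genotypes (x axis, log2) for each tested gene, by role in the pathway, with calls in colour and the median of each list as a bar. The member that fell, Adcy6, lies at -0.53. All 5 other cyclases and 16 of 20 phosphodiesterases and cyclic AMP binders lie above 0, of which 2 and 12 passed, beside 15.3% of all genes tested.

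On the nerve side, 2 of 11 genes of catecholamine synthesis, uptake and breakdown rose and 3 fell. Dbh, the enzyme that makes noradrenaline from dopamine, rose by 1.86 ± 0.15 (3.63-fold; adjusted p = 0.000394), from -0.49 to 0.13 on the birth arrays to 1.58 to 1.83 on the 1-week arrays. Ddc, which makes dopamine, fell by 1.38 ± 0.16 (adjusted p = 0.00145; 0.0282 by the scanner files). The vesicle transporter gene Slc18a2 fell by 0.74 ± 0.15 (adjusted p = 0.0116), and Slc18a1 was at least 1.90-fold lower, being above background on all birth arrays, through which alone it entered the test, and on none at 1 week (-0.37 with normexp). Th, the first enzyme of the path, stood at +0.38 ± 0.12 and did not pass (adjusted p = 0.0555). Of 5 acetylcholine genes Bche, the butyrylcholinesterase, fell by 0.49 ± 0.14 (adjusted p = 0.0426), a call lost without any single array other than A (up to 0.129).

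Summed levels of cell type markers also differed by age. Heart muscle markers were present on all arrays (6 of 6 genes above background; summed signal 1068 to 1226 at birth and 1161 to 1347 at 1 week), while of 6 skeletal muscle markers 5 passed on no array and Myh1 on 1. The summed signal of sympathetic neuron markers, 8 of 9 above background on at least 1 array, was 2.83 to 3.31 at birth and 6.03 to 7.53 at 1 week, with no overlap. Dbh gave most of this difference: without it the sums were 1.80 to 2.50 and 2.54 to 4.40, and Slc18a2, in the same list, fell. Stmn2 was the brightest gene of the rest, at -0.11 to 0.55 at birth and 0.69 to 1.66 at 1 week. Slc6a2 and Npy were above background on 1 array each, so the sum does not show a rise across the list. Sums without overlap were also seen for endothelial (86.1 to 90.4 against 113 to 163), pericyte (28.1 to 31.5 against 45.4 to 53.7) and fibroblast markers (77.5 to 94.9 against 152 to 206), each with all genes above background, and for macrophage (2.36 to 3.09 against 3.19 to 4.15) and conduction system markers (2.85 to 3.54 against 4.32 to 7.11; 5 of 6 above background, Isl1 on none). The last 2 each rested on 1 gene: the ages overlapped without Mrc1 (1.74 to 2.32 against 2.18 to 3.19) and without Tbx3 (0.203 to 0.367 against 0.245 to 0.514). Among the fibroblast markers Pdgfra, Dcn, Col1a1 and Lum were higher on every 1-week array than on every birth array. Tcf21 went the other way, at 0.32 to 0.48 at birth and -0.0083 to 0.25 at 1 week, and Postn overlapped between the ages. Array D, with the lowest 75th percentile, had the highest sum for 10 of the 14 lists, heart muscle and erythroid markers included. The part of these cells in the changes of Adcy6, Adcy7, Rgs5 and Dbh was not tested.

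**Figure D4:**
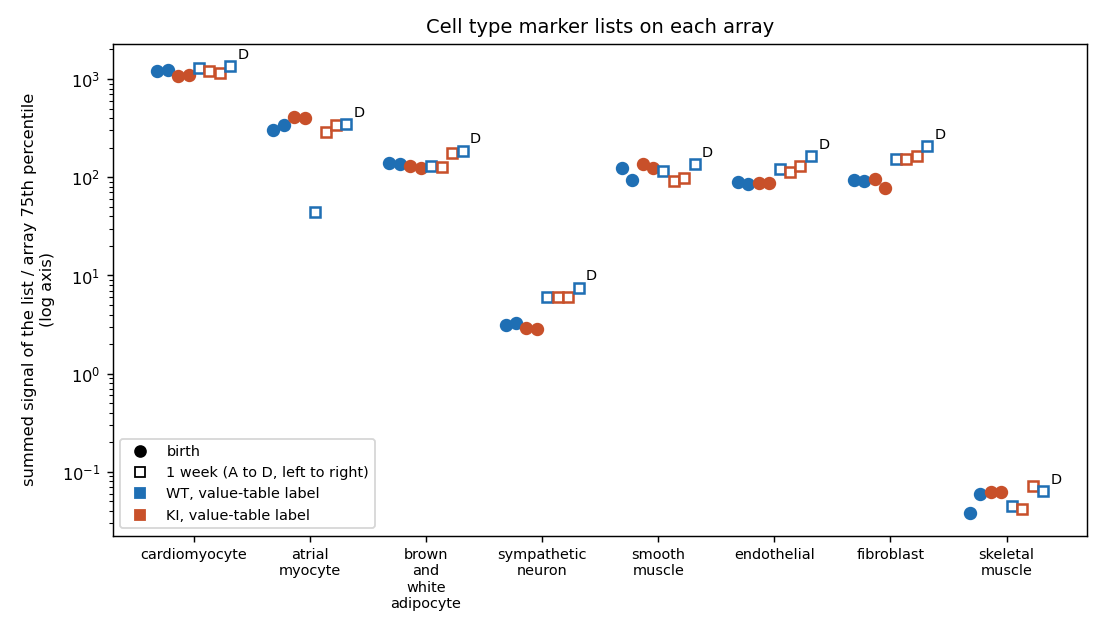
Summed signal of 8 marker lists on each array, in units of the array's 75th percentile (y axis, log scale), with birth arrays as circles and A to D as squares from left to right, coloured by value-table genotype. Sympathetic, endothelial and fibroblast sums lie higher on every 1-week array than on every birth array, and the atrial sum of array A, at 44.7, lies below all others.

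The genes whose levels ran most like those of each member over the 8 arrays were described by Pearson r, with no test, since the arrays share slide, scan and scaling and differ by age. They are the 3 highest for each member in a search over the tested genes, and such a search gives high r by itself. Adcy6 was followed most closely, by Ribc1 (r = 0.996), Sult1a1 (0.992) and Plekhm3 (0.991). Ribc1 read -2.96, -2.49, -2.78 and -2.41 at birth and -3.52, -3.46, -3.68 and -3.23 on A to D, with C lowest, then A, B and D at 1 week, the same order as for Adcy6. Adrb1 was followed by Snrpd1 (0.977), Prkaca (0.958) and Ppil1 (0.956), of which Prkaca, the catalytic subunit of protein kinase A, is in the lists above and stood at 4.92, 4.66, 4.96, 4.77, 4.84, 4.93, 5.07 and 4.75 in array order. The highest Adrb1 and Prkaca levels were both on C and the lowest both on WT birth 2. For Adcy5 the genes were Dnaaf2 (0.973), Mapre1 (0.969) and Gk (0.963), for Adra1b Asb2 (0.954), Dand5 (0.952) and Snapc2 (0.951), and for Chrm2 Sugct (0.942), Sun2 (0.940) and Cnp (0.933). Adra1d ran with Dlc1 (0.937), Atcay (0.936) and Ifi204 (0.929), and Adrb3 with Steap2 (0.938), Ppp2r1a (0.936) and Ints6l (0.933). Among the members themselves r ranged from -0.53 for Adrb1 with Chrm2 to 0.71 for Adrb1 with Adcy5, and Adcy5 with Adcy6 had r = -0.25.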

How the data were processed

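Single-colour Agilent arrays measured RNA of mouse ventricle in 4 groups of 2. The deposited scanner files hold, per the file headers, the processed intensity of each spot on a linear scale, corrected for background within the array by Feature Extraction (version 11.0.1.1 per the file headers, 9.1 per the submitters' processing notes), and quality flags coded 0 or 1. The deposited value table holds the same intensity, and it matched the scanner files at a relative tolerance of 0.0001. Of 56605 probes, 32988 were named through their accessions (RefSeq, GRCm38.p6). From these, log2 processed signal minus each array's 75th percentile over non-control probes was computed, with the brightest probe standing for a gene. A group-mean model was fitted with limma 3.58.1 in R 4.3.3 over all tested genes (4 residual degrees of freedom, Benjamini-Hochberg adjustment, threshold 0.05); adjusted p-values come from it or, where an alternative or a single probe is named, from limma refitted that way. The code was tested on simulated data.

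All members were named with every probe; of each pathway list, up to 3 genes per direction by smallest p, or the gene of smallest p where none passed; for each member, the 3 tested genes most correlated with it. A gene not above background at an age is given as a bound against the lowest signal well above background. Members and lists were chosen with earlier results of these data known. Alternatives were the scanner-file labels, normexp (offset 50), quantile or median scaling, other filters, the mean of probes, a trend and robust fit, a replicate block and each array left out. The scanner-file labels with the replicate block, and single-probe tests, were chosen after seeing the data. Replicate numbers were not taken to pair arrays. Some genes that these rules would name are not reported here.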

Additional observations from a re-analysis of the deposited data

Results flagged for a closer look

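For Adrb3, KI birth 1 stood apart from the other birth arrays at a level of -4.03. Its gap to the nearest array was 0.849 of the range of the 4, and chance gives such a gap in about 1 of 20 groups. Every member was screened in this way at both ages, so 1 such gap is not unusual. For Adra1d by the value table, both KI arrays lay above both WT arrays at birth and below them at 1 week, and the age by genotype difference was -0.87 (adjusted p = 0.757 in limma). For Adra1b by the scanner files, the KI arrays likewise lay above WT at birth and below WT at 1 week, with an age by genotype difference of -1.02 (adjusted p = 0.743 in limma). By the value table that difference was -0.15. Over all genes by the value table, KI arrays lay wholly above WT at birth for 16%, and the genotypes parted at 1 week for 38.3%. The share of genes that reversed in this way was not counted.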

How the results depend on the processing

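The values compared over all alternatives were estimates for members and counts of genes called, and 613 of them were unchanged. An unchanged estimate kept its direction and side of the threshold, and an unchanged count stayed at 0 or near its main value. Of the estimates, 26 changed sign, 9 newly passed and 8 no longer passed, while 32 counts moved further. By the scanner files, with or without the replicate block, KI minus WT at 1 week changed sign for Adra1b (-0.61), Adcy5 (-0.20) and Chrm2 (-0.46). The mean of all probes turned KI minus WT at birth for Adcy6 (-0.081) and the age difference for Adrb3 (0.14), and quantile normalization that for Adcy5 (0.022). The cause was not tested. With 1 array left out, KI minus WT at birth ran from -0.18 to 0.52 for Adrb1, -0.091 to 0.27 for Adcy5, -0.12 to 0.19 for Adcy6 and -0.29 to 0.63 for Chrm2. At 1 week it ran from -0.022 to 1.06 for Adrb3, -0.10 to 0.62 for Adra1b and -0.22 to 0.67 for Chrm2. The age difference ran from -0.063 to 0.29 for Adrb1, -0.49 to 0.056 for Adrb3 and -0.11 to 0.065 for Adcy5. Members called in WT with age numbered 1 with normexp, the trend and robust fit, or scanner-file labels with the replicate block, and 0 to 1 with 1 array left out. In KI they numbered 2 by the scanner files, with or without the block, and 0 to 2 with 1 array left out. Over both genotypes they numbered 2 with quantile or median scaling or genes above background on all 8 arrays, and 0 to 2 with 1 array left out. The added member without array A was Adra2a, which entered only through D, where it read highest, so nothing is read from it. Under the replicate block by the value table the members called did not change in number, Adcy6 had an adjusted p of 0.0178 in limma, and 51 pathway genes were called in place of 50. Deviations of same-numbered arrays correlated from -0.137 to 0.286. Pathway genes called in KI were 12 with no filter in place of 25, and in WT 18 with only the arrays compared in place of 32. In the main setting 10.6% of all genes tested were called in KI and 19.3% in WT. A fit of only the arrays compared does not differ for age by genotype or over both genotypes and was not run. With 2 arrays a group, their number limits the precision, and dim probes (Adrb3, Adra1d) lie near background.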
